A study of Mus musculus with 2 samples.

Results

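Solute carriers are the membrane proteins that move ions, sugars, amino acids, vitamins and metabolites across the plasma membrane and the membranes of organelles. The genes described here are the solute carriers detected in the cervical loop (CL) of the mouse lower incisor. They were chosen by their symbol (Slc and a digit, or Slco) and selected on a measured value, a detection p-value under 0.01 for at least 1 probe in Med1 KO or WT tissue. Slc40a1, Slc11a2, Slc39a14 and Slc4a1 were left out. Of 333 such symbols on the array, 169 were detected, or 50.8%, against 50.5% of all 16593 named genes on the array (8378 detected). Of those 169, 4 symbols name proteins that bind to carriers or lie next to a carrier gene and carry nothing themselves (Slc9a3r1, Slc9a3r2, Slc4a1ap and Slc7a6os). They were kept because the rule goes by the symbol.

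The CL is the growing end of the continuously erupting incisor and holds the dental epithelial stem cells that give rise to ameloblasts. In the KO mice, floxed Med1 alleles were deleted by Cre driven by the keratin 14 (Krt14) promoter, which is active in epithelial cells, and so the cells around the epithelium are not targeted. The control mice, labelled WT, carried the same floxed alleles without Cre. All mice were C57BL/6 at 10 wk of age, and tissue of 3 mice was combined in each sample. There was 1 KO sample and 1 WT sample, each with 1 column of values from an Illumina MouseRef-8 v2 bead array, called an array below. The design text gives n = 3 per genotype, but no source used here states if a column is 1 array or an average. A note on dissection speaks of the tissue that makes hair in the KO, while titles and stage name the CL. With 1 column per genotype no difference has a replicate check, so no p-value between genotypes is given and every ratio compares these 2 columns only.

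Enamel is made of calcium phosphate crystals, and their growth releases protons. Ameloblasts therefore move calcium and phosphate toward the enamel and bicarbonate into it to buffer the acid. Carriers of the Slc12, Slc26 and Slc13 families move chloride, other anions and citrate. Zinc is needed by the metalloproteinase that cuts the enamel matrix. Glucose and amino acids feed the cells, and the Slc25 carriers link the cytosol with the mitochondrial matrix. Several of these carriers are known from enamel that is thin or soft when the gene is lost in mice or in people.

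Med1 itself had a non-normalized intensity of 172.9 in KO and 245.9 in WT. The log2 ratio, which is KO minus WT here and throughout, was -0.80 after background correction and quantile normalization, or 1.74-fold lower in KO, from the 1 of its 4 probes that was detected. Where that probe lies relative to the deleted exons was not checked. Intensities of single genes are given below as deposited, before correction and normalization, so a ratio near 0 can have the opposite sign to the plain intensities. Ameloblast products were detected in both samples. Amelx (amelogenin) had 22412.7 in KO and 22621.8 in WT, and 7 of 8 ameloblast markers on the array were detected, with a median log2 ratio of 0.00 (3 above 0 and 3 below). The 3 above 0 were Fam20a (0.65) and Sp6 (0.60), each more than 1.5-fold higher in KO, and Mmp20 (0.41). The 3 below 0 were Ambn (-0.085), Enam (-0.097) and the dim Klk4 (-0.325). Markers of neighbouring tissue were also present. Summed intensities of odontoblast and osteoblast markers (6 of 7 detected) were 35778.4 in KO and 36839.6 in WT. Erythroid markers (4 of 5 detected) summed to 15108.8 in KO and 20373.8 in WT, most of it from Hba-a1 (13157.9 in KO, 18394.4 in WT). Endothelial markers (7 of 8) summed to 3792.5 in KO and 5198.4 in WT, and neutrophil markers (9 of 9) to 6407.7 in KO and 3940.5 in WT. Both detected Schwann cell markers (median -0.52) and 4 of 5 fibroblast and pulp markers (median -0.14) were below 0. In tissue of this kind, fewer cells of a type and less RNA per cell cannot be told apart.

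Across the 169 solute carriers the 2 arrays were close. The median log2 ratio was 0.03, against 0.00 over all 8378 detected genes. The ratio was above 0 for 91 carriers, or 53.8%, beside 50.1% of all detected genes. The middle 90% of carriers lay between -0.50 and 0.63, against -0.50 and 0.49 for all genes, and the median size of the ratio regardless of sign was 0.20 for carriers and 0.17 for all genes. Carriers were dim on this array, with a median log2 level of 7.18 against 7.75 for all detected genes. Signals of different probes are not on one scale of abundance, and level matters here because dim probes are noisier. Of the 169 carriers, 148 were detected on both arrays (87.6%, against 92.0% of all detected genes), 16 on the KO array only (9.47%, against 5.29%) and 5 on the WT array only (2.96%, against 2.7%). Since detection decided membership, these shares are a description.

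**Figure D1:**
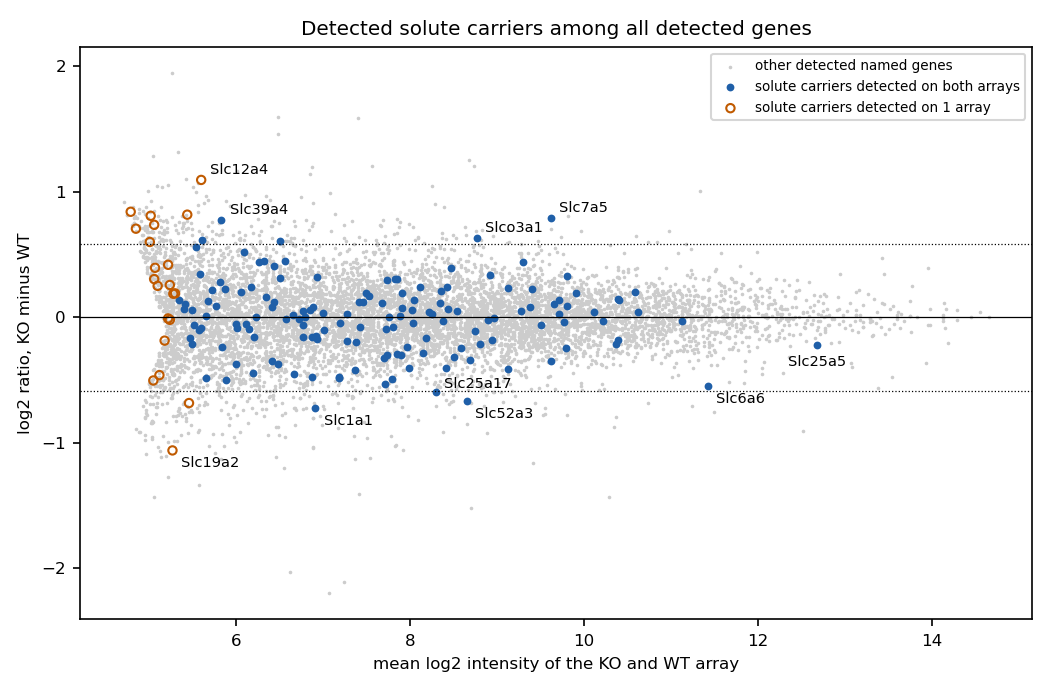
Log2 ratio (KO minus WT) against the mean log2 intensity of both arrays for 169 detected solute carriers (blue filled points, detected on both arrays; orange open points, detected on 1 array) and all other detected named genes (grey). Dotted lines mark 1.5-fold. Most carriers lie between the lines, and the median log2 ratio of the carriers is 0.03.

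A fold limit of 1.5 singles out 12 carriers. The study's methods used that fold limit together with a p-value limit, which 1 column per genotype does not allow here. For a gene detected on 1 array only, the ratio was counted as a lower bound, taken against the lowest signal of any detected probe on the other array. Of the 169 carriers, 7 were at least 1.5-fold higher in KO (4.14%), beside 1.78% of all detected genes. At least 1.5-fold lower in KO were 5 carriers (2.96%), beside 2.24% of all genes. At a limit of 2-fold, with the same bounds, 0 carriers were counted in either direction, beside 0.143% of all genes higher and 0.251% lower. The plain ratios of Slc12a4 (2.14-fold higher) and Slc19a2 (2.09-fold lower) lie past 2-fold, but each was detected on 1 array and is known only to its bound. The higher carriers were Slc7a5, Slc39a4, Slco3a1, Slc17a8 and Slc12a1 on both arrays and Slc12a4 and Slc4a9 on the KO array only. The lower ones were Slc1a1, Slc52a3 and Slc25a17 on both arrays and Slc4a8 and Slc19a2 on the WT array only. No single substrate is common to all 12: amino acids, zinc, chloride, bicarbonate, vitamins, cofactors and organic anions are all among them. Of the 44 carriers with a mean log2 level under 6, 13.6% passed the limit, against 5.58% of all genes that dim. Of the 69 carriers between log2 6 and 8, 2.9% did, against 5.83% of all genes in that range. Of the 56 carriers at log2 8 or more, 7.14% did, against 1.99% of all genes that bright. The bright ones were 4 in number (Slc7a5, Slco3a1, Slc52a3 and Slc25a17).

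The promoter sequence of 3 of these 12 is shown, 1 of the higher and 2 of the lower carriers, because Mediator works at promoters. RefSeq entries (build GRCm38.p6), each of 250 bases before and 50 bases after the start site, were found for 134 of the 169 carriers, 182 entries in all, and for 7 of the 12. Capitals mark GGGCGG on either strand (CCGCCC when read on the strand shown), the GC box bound by the SP family. Matches that overlap were each counted. The Slc12a4 entry (chr8:105966066-105966365, minus strand) holds 6, the Slc1a1 entry (chr19:28834885-28835184, plus strand) 1 and the Slc25a17 entry (chr15:81360716-81361015, minus strand) 1.
Slc12a4: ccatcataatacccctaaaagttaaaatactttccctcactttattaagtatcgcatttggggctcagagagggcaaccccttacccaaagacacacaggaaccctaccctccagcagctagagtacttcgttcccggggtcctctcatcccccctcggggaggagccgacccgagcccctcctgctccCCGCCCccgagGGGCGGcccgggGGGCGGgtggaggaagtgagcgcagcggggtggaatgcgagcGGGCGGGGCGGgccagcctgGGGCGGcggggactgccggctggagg
Slc1a1: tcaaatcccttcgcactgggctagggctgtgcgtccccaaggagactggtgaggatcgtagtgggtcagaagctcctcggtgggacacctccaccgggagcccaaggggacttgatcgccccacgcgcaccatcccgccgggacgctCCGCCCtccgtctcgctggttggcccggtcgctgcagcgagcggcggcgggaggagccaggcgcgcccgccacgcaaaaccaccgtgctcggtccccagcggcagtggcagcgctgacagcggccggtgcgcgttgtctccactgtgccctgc
Slc25a17: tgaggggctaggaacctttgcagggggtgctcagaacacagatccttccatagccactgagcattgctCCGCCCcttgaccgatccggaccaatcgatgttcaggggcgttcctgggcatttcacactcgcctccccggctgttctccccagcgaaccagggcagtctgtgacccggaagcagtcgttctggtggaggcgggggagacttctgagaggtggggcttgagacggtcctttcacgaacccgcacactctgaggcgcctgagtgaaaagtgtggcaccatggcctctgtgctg
The matches of Slc12a4 lie on both sides of the start site, and the single match lies 103 bases before the start in Slc1a1 and 182 bases before it in Slc25a17. The other 4 genes with an entry show no split by direction: of the higher carriers Slc12a1 has 1 match and Slc17a8 has 0 in both of its entries, and of the lower ones Slc19a2 has 2 and Slc4a8 has 0. GGGCGG was present in 69.8% of the carriers' entries, in 62.9% of the 8810 entries of detected genes and in 35.7% of all 32851 entries. TGATGNAA, the element bound by C/EBP and ATF factors during amino acid shortage, was in none of the entries of those 7 genes. It was found in 3.85% of the carriers' entries and in 2.37% of those of detected genes, on either strand, and its letters cannot overlap a GC box. A match is a string of letters and not a bound site.

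**Figure D2:**
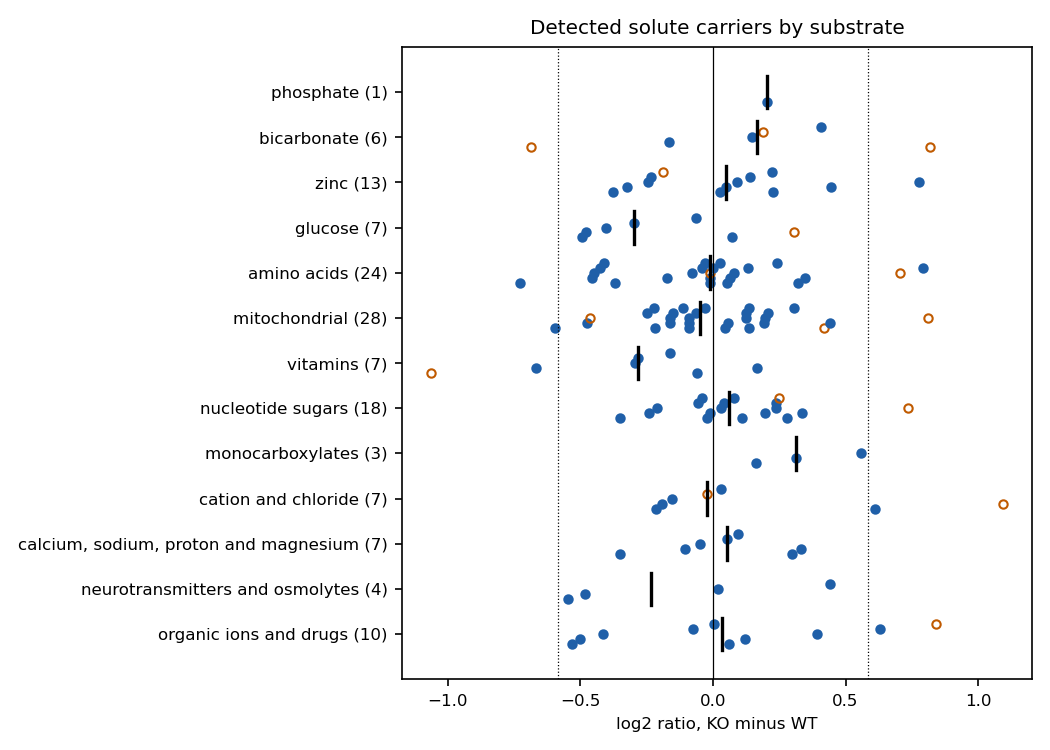
Log2 ratio (KO minus WT, horizontal axis) of each detected solute carrier by substrate, with the number of detected members in brackets. Filled points were detected on both arrays, open points on 1 array, black bars are group medians and dotted lines mark 1.5-fold. Glucose and vitamin carriers lie mostly to the left of 0 (medians -0.30 and -0.28) and the 3 monocarboxylate carriers to the right (median 0.31).

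Phosphate carriers were represented by a single gene. Slc20a2, a sodium-dependent importer of inorganic phosphate, had an intensity of 1625.6 in KO and 1593 in WT, with a log2 ratio of 0.20. Its level ranked above 89.6% of detected genes, and it was 1.15-fold higher in KO, below the fold limit. The other 4 phosphate carriers on the array were not detected. They include Slc20a1, a close relative of Slc20a2, and Slc34a2, the phosphate carrier of secretory epithelia.

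Bicarbonate carriers were detected for 6 of 11 symbols, 4 of them above 0 and 2 below, with a median ratio of 0.17. Slc4a2, the chloride-bicarbonate exchanger on the basolateral side of ameloblasts, was bright in both samples, with 1417.9 in KO and 1442.6 in WT. Its ratio was 0.15, and -0.01 when the arrays were scaled by their medians alone. Slc26a6, an apical exchanger of chloride, bicarbonate and oxalate, had 183.3 in KO and 162.7 in WT (0.41). Slc26a7, a chloride-bicarbonate exchanger known from enamel epithelium, was detected in KO only, with 128.4 in KO and 121.3 in WT, so it was at least 1.08-fold higher in KO.

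The 2 bicarbonate carriers beyond the fold limit pointed in opposite directions and were both near the floor of detection. Slc4a9, an anion exchanger best known from the kidney, had 143.8 in KO and 117.4 in WT, where it was not detected, and was at least 1.51-fold higher in KO. Slc4a8, a sodium-driven chloride-bicarbonate exchanger, had 122.2 in KO, where it was not detected, and 142 in WT, at least 1.57-fold lower in KO. Slc4a3, measured by 3 detected probes, had 348.7 in KO and 409.1 in WT on the probe with the highest signal (-0.16). Its other probes gave -0.13 and -0.38, so all 3 were below 0. Slc4a4, the sodium bicarbonate cotransporter of ameloblasts, was not detected (113.8 in KO, 107.8 in WT), nor was Slc26a4 (117.9 in KO, 120 in WT).

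Zinc carriers were detected for 13 of 20 symbols, 8 above 0 and 5 below, with a median of 0.05. Under median scaling that median was -0.11, with all genes at -0.13. The Slc39 (ZIP) genes bring zinc into the cytosol and the Slc30 (ZnT) genes take it out. Of the 8 detected Slc39 genes, 6 were above 0 (median 0.11), and of the 5 detected Slc30 genes, 2 were (median -0.19). The Slc30 median is the value of Slc30a1, which was detected in WT only. Under median scaling Slc39a6 (-0.019), Slc39a11 (-0.058), Slc39a13 (-0.117) and Slc30a7 (-0.115) fell below 0, while Slc39a4, Slc39a3, Slc39a7 and Slc30a9 stayed above it. The largest ratio was that of Slc39a4, the importer that absorbs dietary zinc in the gut, with 159.7 in KO and 128.8 in WT, a ratio of 0.78 or 1.71-fold. The signal of Slc39a4 was dim, ranking above 16.8% of detected genes, and 1 of its 2 probes was detected.

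Slc39a3, another plasma membrane importer, had 193 in KO and 168.7 in WT (0.45). Slc39a7, which releases zinc from the endoplasmic reticulum, had 768.6 in KO and 748.8 in WT, and its detected probes gave 0.22 and 0.26. Lower in KO were Slc39a10, with 142.4 in KO and 160 in WT (-0.38), and Slc30a6, with 265.8 in KO and 330 in WT (-0.32). Slc30a5, the partner with which Slc30a6 loads zinc into the secretory pathway, had 849.4 in KO and 1110.7 in WT, and its probes gave -0.24 and -0.05. Slc39a8, which carries zinc and manganese, had 305.1 in KO and 367.8 in WT (-0.24). The bright Slc39a11 and Slc39a6 stayed within 0.14 of 0. Slc30a1, the exporter at the plasma membrane, was the carrier just inside the detection limit with 121.5 in KO and 123.9 in WT and detection values of 0.01504 in KO and 0.00877 in WT. Just outside it, at 0.01003, were Slc22a21 (120.1 in KO, 121.4 in WT), Slc6a12 (123 in KO, 111 in WT) and Slc7a6 (112.6 in KO, 122.1 in WT).

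Glucose carriers were detected for 7 of 17 symbols, and 5 of the 7 were below 0, with a median of -0.30. Slc2a1 (GLUT1), the basal glucose importer of many cell types, had 266.2 in KO and 360 in WT. Its ratio was -0.50, or 1.41-fold lower in KO. It was -0.61 (beyond the 1.5-fold limit) under median scaling, where all genes had -0.13. It was -0.43 with an offset of 50 and -0.36 in the authors' values. Slc2a3 (GLUT3), a high-affinity importer, had 271.8 in KO and 334.3 in WT (-0.30). Slc50a1, a sugar carrier of the SWEET family, had 296.7 in KO and 391 in WT (-0.40). These 3 genes, each measured by 1 probe of similar brightness, were thus all lower in KO, and none passed the 1.5-fold limit.

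Slc2a10 (GLUT10) did not give 1 answer. Its brighter probe had 205.8 in KO and 263.6 in WT, a ratio of -0.48, and its dimmer probe had a ratio of 0.28. With the mean over detected probes in place of the brighter probe, the median of the glucose group was -0.10. Slc2a13, which carries myo-inositol with protons, had 323 in KO and 332.2 in WT (0.07), and Slc2a8 had 190.4 in KO and 201.9 in WT (-0.06). Slc2a4 (GLUT4), the insulin-responsive importer of muscle and fat, was detected in KO only, with 124.3 in KO and 114.3 in WT, too close to the floor for a bound on the fold. Skeletal muscle markers, a list that includes Slc2a4, were detected for 6 of 8 genes with summed intensities of 1347.7 in KO and 1206.2 in WT. All 6 were above 0 (log2 levels of 5.21 to 8.70 in KO and 4.90 to 8.47 in WT), and Myh1 and Myh4 were not detected. The 5 adipocyte markers on the array were not detected. Of the 7 detected endothelial markers, 5 were below 0 (median -0.26; log2 levels of 5.23 to 11.00 in KO and 5.01 to 11.27 in WT; Slco1a4 not detected). The part of these lists in the glucose carrier values was not tested.

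Amino acid carriers were detected for 24 of 47 symbols, evenly on both sides of 0 (11 above, 13 below, median -0.01), and they held the widest ratio among carriers at log2 8 or more. Slc7a5 (LAT1), which imports leucine and other large neutral amino acids, had 1050.7 in KO and 720.4 in WT. The ratio was 0.79, or 1.73-fold higher in KO, and Slc7a5 ranked above 80.1% of detected genes in level. It was also the only carrier to stay beyond 1.5-fold in the authors' own normalized values, with 1119.8 in KO and 683.7 in WT (0.71). The array has 1 probe for Slc7a5. Slc3a2, the heavy chain that Slc7a5 needs to reach the plasma membrane, was not detected by its 1 probe (106.2 in KO, 102.7 in WT).

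Slc1a1 (EAAT3), an importer of glutamate, aspartate and cysteine, stood at the other end, with 176.9 in KO and 245.3 in WT, a ratio of -0.73 or 1.65-fold lower in KO. Its relative Slc1a3 (GLAST) had 368 in KO and 498.4 in WT (-0.41). Slc1a4, a carrier of neutral amino acids, had 197.8 in KO and 220.1 in WT (-0.17). Of the 5 detected Slc1 genes, 4 were below 0 (median -0.17). Slc6a9 (GLYT1), the glycine importer, had 224.8 in KO and 285.2 in WT (-0.42), and Slc6a17 and Slc7a4 had ratios of -0.45 each.

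Slc38a2 (SNAT2), a bright carrier of glutamine and alanine that cells induce when amino acids run short, had 2153.3 in KO and 2471.1 in WT. Its 3 probes gave -0.03, 0.15 and -0.32, on both sides of 0. Slc7a11, the cystine importer, had 140.6 in KO and 128.1 in WT (0.35). Slc36a1, a proton-coupled lysosomal carrier, was detected in KO only, with 124.1 in KO and 103.8 in WT, again with no bound. Slc38a9, the lysosomal arginine sensor, had 248.1 in KO and 269.3 in WT (-0.08), with 0.40 on its dimmer probe. The cationic carrier Slc7a1 and the glutamine carrier Slc1a5 were not detected.

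**Figure D3:**
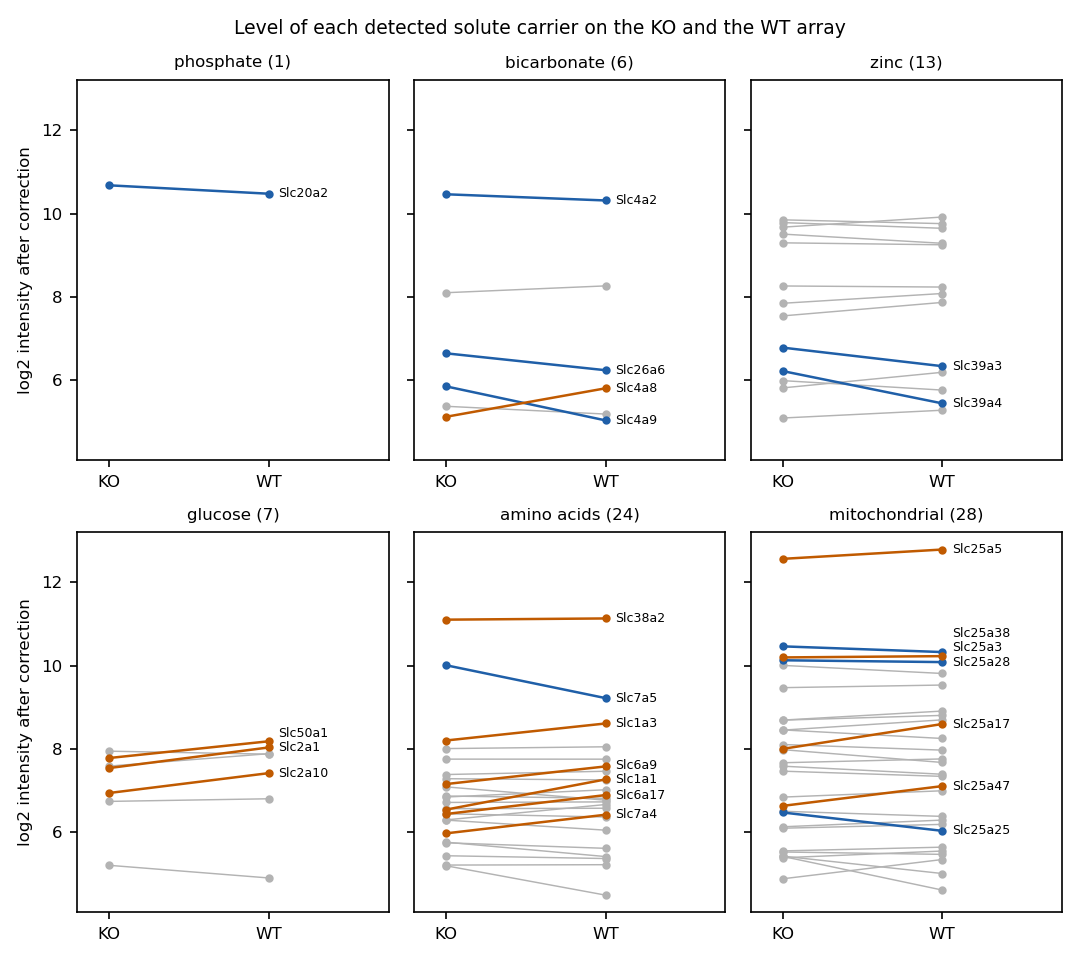
Log2 intensity after background correction and quantile normalization on the KO array (left) and the WT array (right) of each panel, 1 line per detected solute carrier, by substrate with the number of members in brackets. Coloured and named lines are those farthest apart or brightest, blue where KO is higher and orange where KO is lower. Slc7a5 lies at 10.01 in KO and 9.22 in WT, while Slc38a2 and Slc4a2 are nearly level.

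Mitochondrial carriers of the Slc25 family had 28 of 39 symbols detected, 13 above 0 and 15 below (median -0.05). Slc25a5, the adenine nucleotide translocator that exchanges ATP for ADP, had the highest signal of all carriers, with 5843.7 in KO and 7552.6 in WT. Its ratio was -0.22, or 1.17-fold lower in KO, and the same in the authors' values. Slc25a3, which imports phosphate for ATP synthesis, had 1177.2 in KO and 1375 in WT, and its 2 probes gave -0.03 and 0.11. Slc25a38, a glycine carrier used in heme synthesis, had 1421.4 in KO and 1455.4 in WT, and its 3 probes gave 0.14, 0.37 and 0.42. It is on the erythroid list, which had a median of -0.12 and log2 levels of 6.47 to 13.74 in KO and 7 to 14.11 in WT. The 2 genes of that list above 0 were Slc25a38 itself and Slc4a1, a carrier left out above. The 2 below 0 were Hba-a1 (-0.37) and Alas2 (-0.53), and Epb42 was not detected. Slc25a28 (mitoferrin-2), the mitochondrial iron importer, had 1129.1 in KO and 1250 in WT (0.04).

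The mitochondrial group had 1 member beyond the fold limit, and it is not in mitochondria. Slc25a17, a peroxisomal carrier of cofactors such as coenzyme A, had 332.2 in KO and 494.9 in WT, a ratio of -0.60 or 1.51-fold lower in KO. Slc25a47 followed with 182.9 in KO and 228.8 in WT (-0.47). Slc25a25, an ATP-Mg/phosphate carrier, had 172.9 in KO and 152.4 in WT (0.44). Slc25a39, needed for glutathione in the matrix, had 328.9 in KO and 299 in WT (0.31). Slc25a11, the oxoglutarate-malate exchanger, had 1047.3 in KO and 1037.8 in WT, and its 3 probes were all above 0 (0.20, 0.05 and 0.51). Slc25a29 and Slc25a42 were detected in KO only (at least 1.12-fold and 1.13-fold higher in KO) and Slc25a30 in WT only (at least 1.14-fold lower in KO).

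Vitamin carriers leaned one way. Of 11 symbols 7 were detected, and 6 of the 7 were below 0, with a median of -0.28 (-0.22 over the 6 detected on both arrays and -0.41 under median scaling, where all genes had -0.13). Slc52a3, an importer of riboflavin, had 386.8 in KO and 620 in WT, a ratio of -0.67 or 1.59-fold lower in KO. Slc19a2, an importer of thiamine, had 113.8 in KO, where it was not detected, and 141.8 in WT, at least 1.56-fold lower in KO. Slc19a1, the reduced folate carrier, had 333.5 in KO and 417.1 in WT (-0.28). Slc5a6, which imports biotin and pantothenate, had 286.4 in KO and 352.5 in WT (-0.29). Smaller ratios were those of the folate carrier Slc46a1 (193.5 in KO, 213.5 in WT, -0.16) and the ascorbate carrier Slc23a2 (132 in KO, 132.4 in WT, -0.06). Slc46a3 was the exception, with 273.9 in KO and 266.2 in WT (0.17). Each vitamin carrier was measured by 1 probe.

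Among chloride carriers, Slc12a2 (NKCC1), the sodium-potassium-chloride cotransporter of enamel organ cells, had 1232.6 in KO and 1592.4 in WT. Both detected probes were below 0, at -0.21 and -0.13. Slc12a4 (KCC1), a potassium-chloride exporter, was detected in KO only, with 156.1 in KO and 117.9 in WT, so it was at least 1.85-fold higher in KO. In the authors' values its ratio was 0.40. Slc12a1 (NKCC2), known from the kidney, had 195.3 in KO and 161.1 in WT, a ratio of 0.61 or 1.53-fold. Its other detected probes gave -0.21 and 0.38, so its probes contradict each other in direction. For calcium, Slc8a1 (NCX1), a sodium-calcium exchanger, had 225.2 in KO and 238.3 in WT (-0.05). Slc24a3 (NCKX3) had 1020.8 in KO and 932.7 in WT (0.33), and Slc24a4 (NCKX4), the exchanger that ameloblasts use at maturation, was not detected (112.1 in KO, 116.2 in WT).

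Carriers of osmolytes and organic ions had some of the wider bright ratios. Slc6a6, the taurine importer, had 2205.3 in KO and 3596.7 in WT, a ratio of -0.55 or 1.46-fold lower in KO, just inside the fold limit, and -0.53 in the authors' values. Slc6a6 ranked above 95.3% of detected genes in level. Slc6a8, the creatine importer, went the other way with 775.8 in KO and 655.7 in WT (0.44). Slco3a1, a carrier of prostaglandins and other organic anions, had 602.1 in KO and 457.3 in WT, 1.55-fold higher in KO (0.63), with 0.27 on its second probe. Its relatives Slco2b1 (254.5 in KO, 348.5 in WT, -0.53) and Slco4a1 (541 in KO, 768.7 in WT, -0.42) were lower in KO. The vesicular glutamate carrier Slc17a8 (VGLUT3) was dim, with 146.1 in KO and 124.4 in WT (0.62, 1.53-fold). The 3 detected monocarboxylate carriers were all above 0, led by Slc16a6 (142.7 in KO, 123.6 in WT, 0.56), while the lactate carriers Slc16a1 and Slc16a3 were not detected. The Slc35 family, nucleotide sugar carriers of the Golgi and their relatives, had 18 of 24 symbols detected, 11 above 0 and 7 below (median 0.06, and -0.10 under median scaling). Within it Slc35e3 had 737.6 in KO and 1024.8 in WT (-0.35), and Slc35b1 had 603.4 in KO and 538 in WT (0.34).

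A list of 22 genes with a known role in ameloblasts ran across these groups. Of 21 on the array 11 were detected, 6 above 0 and 5 below, with a median of 0.01 and a span of -0.50 (Slc2a1) to 0.41 (Slc26a6). Slc10a7, whose loss in people causes skeletal and enamel defects, had 137 in KO and 135.5 in WT (0.01, and 0.36 on its dimmer probe). Slc13a5, the citrate importer, was detected in KO only, with 129 in KO and 121.8 in WT (at least 1.10-fold higher in KO), and the scaffold gene Slc9a3r1 had 236.9 in KO and 271.2 in WT (-0.20). The median of the list was close to that of all detected genes. Enamel ion transport genes outside the solute carriers (pumps, channels and carbonic anhydrases) were detected for 16 of 20 genes on the array, 13 above 0 and 3 below, with a median of 0.16. Of 5 carriers in a supplementary table on a later stage of enamel formation at another age (a list chosen for its values in these mouse lines, here without Slc40a1, which was left out above), 3 were detected here, Slc25a1, Slc39a8 and Slc23a2, with ratios of -0.11, -0.24 and -0.06. All 3 were below 0 and under the fold limit.

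Some carriers mark single cell types. Slc11a1, the phagosomal metal carrier of macrophages and neutrophils, had 292.1 in KO and 362.1 in WT (-0.30), and its 2 dimmer probes gave 0.37 and -0.12. Neutrophil markers were 8 of 9 above 0 with a median of 1.004 (log2 levels of 5.57 to 11.83 in KO and 5.17 to 10.83 in WT), and Slc11a1 was the exception among them. Macrophage and osteoclast markers were 2 above and 2 below 0 (median -0.06; Acp5 and Slc37a2 not detected). Slc45a2, a carrier of pigment cells, was detected in KO only, with 126.8 in KO and 109.6 in WT, at least 1.03-fold higher in KO. Of 7 pigment cell markers on the array, 5 were not detected (Mlana, Pmel, Slc24a5, Tyr and Tyrp1). The part of these cell types in the values of the carriers was not tested. Slco2a1, a prostaglandin carrier of endothelium, had 294 in KO and 326 in WT (-0.07). Without the carriers on marker lists and the 4 symbols that name no carrier, 160 carriers remained, with 7 higher and 5 lower in KO by 1.5-fold. None of the 9 symbols removed was among the carriers past that limit, so these counts could not change.

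Probes of the same gene give the only measure of error in these data. Of the 169 carriers, 33 had 2 or more detected probes, and the ratios of the 2 brightest differed by a median of 0.14, with a 95th percentile of 0.71. Over all 2007 such genes the median was 0.20 and the 95th percentile 0.71, and with both probes above log2 8 (557 genes) they were 0.15 and 0.47. The 2 probes had the same sign in 22 of the 33 carriers. Slc12a1, Slc2a10, Slc11a1, Slc12a9 and Slc41a3 differed most, and at least 1 probe of each was dim. Slc7a5 (0.79), Slc52a3 (-0.67), Slco3a1 (0.63), Slc25a17 (-0.60) and Slc6a6 (-0.55), all bright, had ratios larger in size than 0.47. That is no test of them, because they were named for wide ratios and 0.47 is a difference between 2 ratios. Among these genes only Slco3a1 had a second detected probe, and it was dim (log2 6.14). The spread also covers probes of 1 labelled RNA and not mice.

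**Figure D4:**
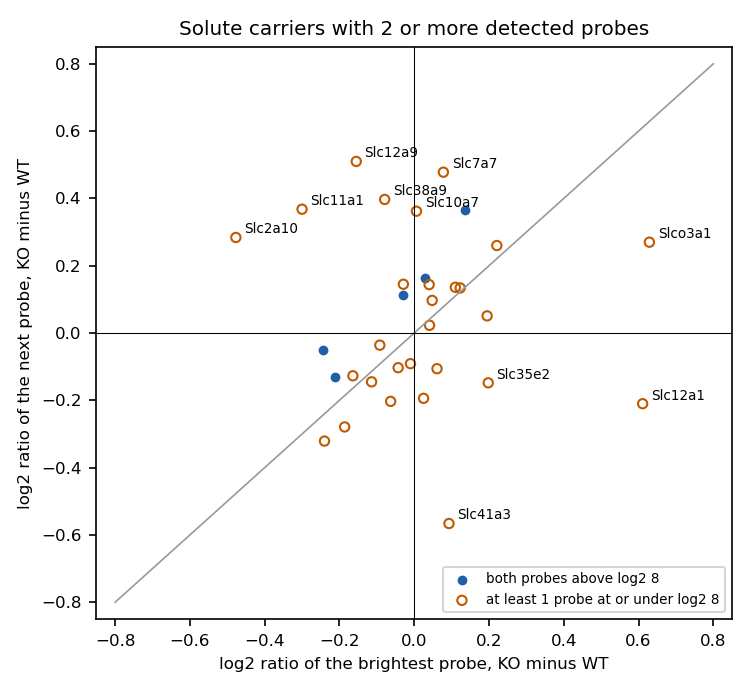
Log2 ratio (KO minus WT) of the brightest detected probe against that of the next probe for the 33 solute carriers with 2 or more detected probes. Filled points have both probes above log2 8, the grey line marks equal ratios, and 22 of 33 genes lie in the quadrants where both probes have the same sign.

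How far apart the 12 carriers stand depends on the treatment of background. Without background correction, or in the authors' normalized values, 1 of them (Slc7a5) reached 1.5-fold, 1 in 169 higher in KO beside 0.263% of all genes, and none was lower beside 0.43%. These settings are not separate checks, because they gave each carrier nearly the same ratio. Slc7a5 had 0.711 without background correction and 0.712 in the authors' values, and Slc1a1 had -0.422 in both. Scaling by the array median in place of quantiles moved the median of all genes to -0.13 and that of the carriers to -0.10. It left 3 of 169 carriers higher, beside 0.871% of all genes, and 9 of 169 lower, beside 4.29% of all genes. It put 36.1% of carriers above 0, beside 30.6% of all genes. No carrier of the 12 changed direction, but these settings are no check of direction, because none could readily turn a ratio past 1.5-fold. Without background correction and in the authors' values, 0 of 104 named carriers (a list set out below) changed sign. Without background correction that result was fixed in advance. Background correction keeps the order of probes on each array, and after quantile normalization that order sets the sign. The authors' ratios were nearly the same as those without background correction, so they add no check of sign. Median scaling moved the median of all genes by less than the 1.5-fold limit.

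**Figure D5:**
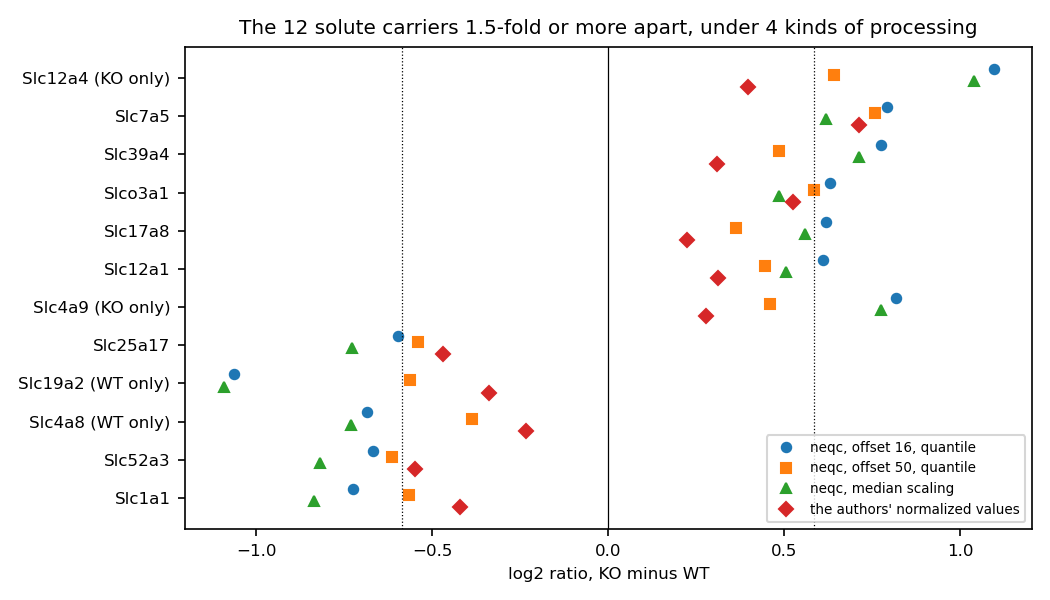
Log2 ratio (KO minus WT, horizontal axis) of the 12 solute carriers 1.5-fold or more apart under 4 kinds of processing, 1 symbol each. Dotted lines mark 1.5-fold. For carriers detected on 1 array the plain ratio is drawn, which is wider than the bound used for the count. Slc7a5 stays right of the upper line in all 4, between 0.62 and 0.79.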

How the data were processed

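RNA of microdissected CL tissue was hybridized to Illumina MouseRef-8 v2 arrays. For 25697 probes, the authors deposited a linear intensity exported from GenomeStudio without background correction or normalization. A detection p-value against negative controls was deposited beside each intensity. A second deposited set of intensity values was normalized between arrays by the authors and used as an alternative. Genes were named from the platform annotation (23978 probes with a symbol), and all 169 member symbols matched RefSeq.

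Intensities were corrected with neqc of limma (version 3.58.1, R 4.3.3; negative controls inferred from detection p-values, offset 16), quantile-normalized and log2-transformed. The step was run on simulated data with changes of 2-fold or more in probes clearly above background. That run does not cover changes of 1.5-fold or probes near the floor. Each gene was taken from its brightest probe detected at p under 0.01. A gene detected on 1 array was counted by a lower bound, with the lowest detected log2 signal (5.15 in KO, 5.26 in WT) as floor. The number of arrays limits the precision, and no test between genotypes was possible.

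Members, substrate groups and gene lists were chosen with earlier results of these data known. Symbols were grouped by family and known substrate, and families Slc49 and Slc66 were placed after the data were seen. Named genes are the 10 highest and 10 lowest ratios, the 5 largest bounds in each direction, the widest and brightest members of each group, the ameloblast list and the carriers tabulated by the study, and further genes were chosen after their values were seen.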

Additional observations from a re-analysis of the deposited data

How the results depend on the processing

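The number of carriers 1.5-fold or more higher in KO was 7, and it was 1 in the authors' normalized values, 1 without background correction, 1 with an offset of 50, 3 under median scaling and 0 at a limit of 2-fold. The number lower in KO was 5, and in the same order it was 0, 0, 1, 9 and 0, and it was 3 among carriers detected on both arrays. Of all detected genes, the shares higher in KO were 1.78%, then 0.263%, 0.263%, 0.633%, 0.871% and 0.143% in that order. The shares lower in KO were 2.24%, then 0.43%, 0.43%, 0.847%, 4.29% and 0.251%, and 2.13% among genes detected on both arrays. No background correction and a larger offset shrink ratios of dim probes by construction. The authors' values gave nearly the same ratios as no background correction. Under median scaling the median of all genes was -0.13. The cause of the other moves was not tested. Of the 12 carriers, 8 were shared with the 12 under median scaling, and 10 passed when detected probes were averaged. The glucose median (-0.30) was -0.42 under median scaling and -0.10 with probes averaged. The zinc median (0.05) was -0.11 under median scaling, where that of all carriers was -0.10. Of 104 named carriers, 18 changed sign under median scaling and 1 under probe averaging. No paired analysis was possible because each genotype has 1 sample. Detection limits dim carriers: 164 symbols were not above background.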
